A study of Mus musculus with 2 samples.

Results

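The constitutive proteasome was described in primary osteoblasts, the bone-forming cells, from the calvaria (skull vault) of 7-day-old CD1 mice. Both cultures had been kept without serum, in medium with bovine serum albumin, for 24 h. The DMSO culture then received the vehicle for 24 h, and the PP1 culture received 2 µM PP1, an inhibitor of c-Src and related tyrosine kinases, for 24 h. RNA of each culture was hybridised to 1 Affymetrix mouse array, and the comparison asks how the transcripts of PP1-treated cells differ from those of vehicle-treated cells. There was 1 array per group, so the groups could not be tested against each other and the values below describe these 2 arrays. The labels do not say from how many animals or cultures each RNA came, and the arrays do not measure kinase or proteasome activity.

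The members are all probe sets annotated to exactly 1 gene whose symbol starts with Psma, Psmb, Psmc or Psmd and a number, without the inducible subunits Psmb8, Psmb9 and Psmb10. A probe set is a group of short probes against 1 transcript. The rule took 76 of the 34945 probe sets with 1 gene, and they belong to 37 of 18193 genes. Of these 37 genes, 14 encode the subunits of the core particle and 17 subunits of the regulatory particle. Psmd5, Psmd9 and Psmd10 are assembly chaperones of the regulatory particle and no part of the finished complex. Psma8 and Psmb11 encode core subunits of the testis and the thymus, and Psmc3ip, a factor of meiotic recombination, is a member by its symbol only. The members were chosen by name and not by a measured value.

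The proteasome is the protease that degrades proteins tagged with ubiquitin. Its core particle is a barrel of stacked rings in which alpha subunits form the gate and beta subunits hold the catalytic sites inside. The regulatory particle caps the barrel: a base with a ring of ATPases unfolds the substrate and opens the gate, and a lid removes the ubiquitin chain. Cells that lack proteasome activity are known to raise the transcription of the subunits together through the factor NFE2L1, which binds antioxidant response elements in their promoters. In osteoblasts the proteasome is known to degrade regulators of bone formation such as RUNX2 and beta-catenin.

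The promoters below are shown because they belong to the genes with the lowest ratios (Psma1, Psmd14 and Psmd5), to 2 constitutive catalytic subunits (Psmb5 and Psmb6) and to a pair of lid genes with opposite ratios (Psmd12 and Psmd13). They come from RefSeq, build GRCm38.p6, and run 5′ to 3′ along the gene from 180 bases before to 20 bases after its start. Capitals mark matches on either strand to the motifs searched: TGANNNNGC (the core of the antioxidant response element), CCAAT (the CCAAT box) and CCGGAAGT (an ETS factor site). The E-box CACGTG, a palindromic site of the factor NRF1 and the cAMP response element TGACGTCA were searched too and had no match in these 7 promoters.
Psma1, chr7:114276097-114276296, minus strand: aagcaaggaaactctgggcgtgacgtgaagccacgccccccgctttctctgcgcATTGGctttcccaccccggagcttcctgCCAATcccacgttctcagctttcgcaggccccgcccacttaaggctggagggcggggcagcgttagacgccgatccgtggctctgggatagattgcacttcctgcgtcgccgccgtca
Psmd14, chr2:61711514-61711713, plus strand: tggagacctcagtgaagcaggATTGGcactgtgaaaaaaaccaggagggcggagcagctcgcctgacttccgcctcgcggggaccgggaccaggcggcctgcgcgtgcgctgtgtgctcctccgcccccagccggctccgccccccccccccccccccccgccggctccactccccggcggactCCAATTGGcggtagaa
Psmd5, chr2:34870943-34871142, minus strand: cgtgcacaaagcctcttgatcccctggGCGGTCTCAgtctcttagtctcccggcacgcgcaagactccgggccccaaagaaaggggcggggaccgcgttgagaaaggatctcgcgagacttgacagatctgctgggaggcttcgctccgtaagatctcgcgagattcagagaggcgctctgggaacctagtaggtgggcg
Psmb5, chr14:54617976-54618175, minus strand: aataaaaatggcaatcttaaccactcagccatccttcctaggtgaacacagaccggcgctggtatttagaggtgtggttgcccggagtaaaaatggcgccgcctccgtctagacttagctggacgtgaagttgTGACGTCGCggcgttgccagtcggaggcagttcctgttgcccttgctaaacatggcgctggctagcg
Psmb6, chr11:70525177-70525376, plus strand: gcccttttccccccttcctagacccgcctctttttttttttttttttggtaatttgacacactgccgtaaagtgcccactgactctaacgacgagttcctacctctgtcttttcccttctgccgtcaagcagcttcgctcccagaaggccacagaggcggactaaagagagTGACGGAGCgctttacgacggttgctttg
Psmd12, chr11:107479348-107479547, plus strand: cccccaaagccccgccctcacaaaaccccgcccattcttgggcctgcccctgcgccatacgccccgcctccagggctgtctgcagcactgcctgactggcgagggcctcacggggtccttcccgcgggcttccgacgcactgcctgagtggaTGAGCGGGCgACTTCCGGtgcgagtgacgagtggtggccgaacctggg
Psmd13, chr7:140882214-140882413, plus strand: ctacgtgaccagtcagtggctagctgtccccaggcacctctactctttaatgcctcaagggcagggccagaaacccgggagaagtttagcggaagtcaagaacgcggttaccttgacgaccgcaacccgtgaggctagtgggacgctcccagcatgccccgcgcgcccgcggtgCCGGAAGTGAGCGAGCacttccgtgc

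In Psmb6 the antioxidant response element core began 9 bases before the gene start, and in Psmb5 47 bases before it. The ETS match of Psmd13 began 6 bases before the start and overlapped the other capitals at its end. In Psmd12 the ETS match lay on the reverse strand, 18 bases before the start. In Psmd14 a forward and a reverse CCAAT match overlapped just after the start. Psmb5 and Psmd12 each had a further match to the antioxidant response element core outside the stretch shown.

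The signals were compared after the PP1 array had been multiplied by 1.68, which made the mean signal of the arrays equal when the outer 2% of the non-control probe sets on each side were left out. Signals under a floor of 31.7, the median over both arrays, were set to the floor. Each gene was represented by its brightest probe set, and 12133 genes had that probe set above the floor on at least 1 array. The log2 ratio is PP1 over DMSO, so a negative value is lower with PP1. As deposited, the PP1 array was dimmer, by a trimmed mean of 94.1 against 158.1. Without the scaling every log2 ratio above the floor is lower by 0.749, all 31 subunits lie below 0, and the median of all genes moves by -0.72. Every direction below is therefore relative to the bulk of genes. No replicate error can be had from these arrays. The log2 ratio had an SD of 0.41 between probe sets of the same gene, over 4745 genes. Such probe sets read the same RNA on the same 2 arrays, so this SD leaves out differences between cultures.

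Of the 37 member genes, 35 had a measured value, among them all 31 subunits. With PP1 the subunits as a whole lay slightly below the bulk of genes. Their median log2 ratio was -0.09 (SD 0.28 between the 31 genes), against 0.01 (SD 0.48) over all 12133 measured genes, and 21 of 31 were below 0, against 48.9% of all genes. In the core particle 11 of 14 subunits were below 0, with a median of -0.15. In the regulatory particle 10 of 17 were below 0, with a median of -0.06. Differences were small: 3 of 35 measured members were at least 1.5-fold lower, where 7.38% of all measured genes were, and 0 of 35 were at least 1.5-fold higher, where 10.6% were. At 1.2-fold, 11 members were lower, against 24.2% of all genes, and 3 were higher, against 27.4%. None of the 35 was 2-fold lower or 2-fold higher, against 1.55% and 3.02%. These counts hold for the brightest probe set of each gene. Other probe sets of Psmc4 (2.12-fold lower) and Psmd4 (2.15-fold higher) passed 2-fold.

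**Figure D1:**
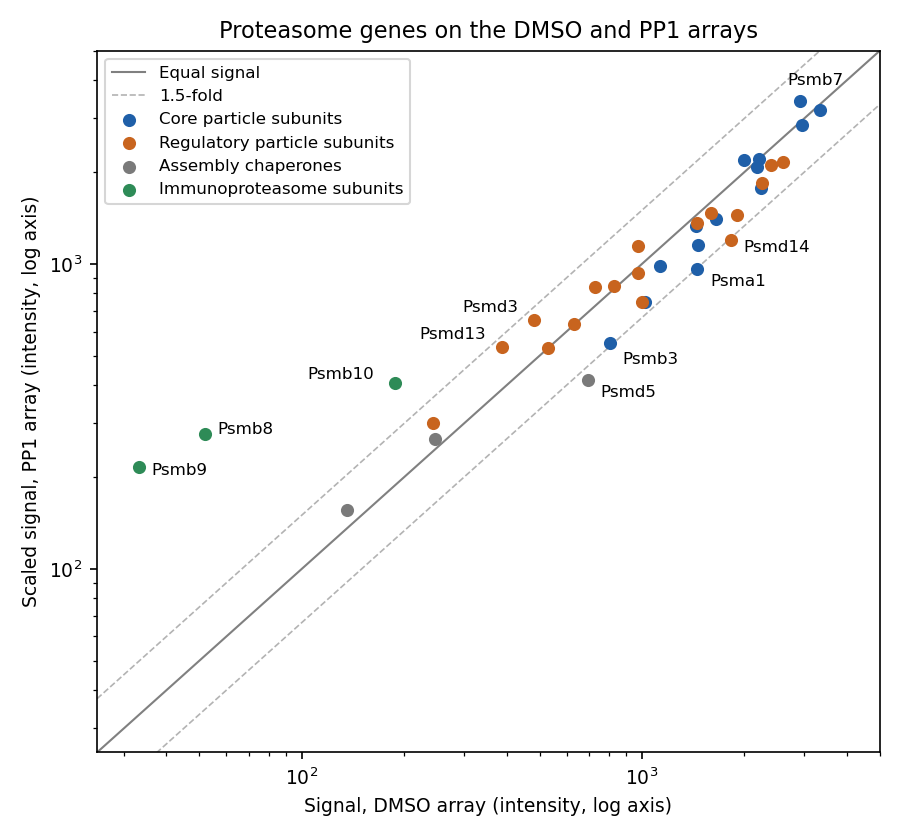
Signal of each proteasome gene on the DMSO array (x axis) and scaled signal on the PP1 array (y axis), both intensities on log axes; each point is 1 gene by its brightest probe set, the solid line marks equal signal and the dashed lines 1.5-fold. Psma1, Psmd14 and Psmd5 lie past the lower dashed line, no constitutive member lies past the upper one, and Psmb8, Psmb9 and Psmb10 lie far above it.

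The alpha ring leaned to lower values with PP1. The highest and the lowest of its 7 ratios were 0.14 and -0.60, its median was -0.19, and 5 of 7 were below 0. Psma1 had a signal of 1455 with DMSO and 962 with PP1, a log2 ratio of -0.60 or 1.51-fold lower. Its other probe set above the floor was dim and went the other way, from 55.5 to 73.0. Psma2 went from 2231 to 1771 (-0.33). Psma7 and Psma5 were also lower: both probe sets of Psma7 gave -0.23, from 1650 to 1408 and from 1568 to 1339, and those of Psma5 gave -0.19 and -0.51. Psma3 (3334 and 3190) and Psma4 (2202 and 2216) had nearly equal signals on both arrays. Psma6 was the highest of the ring by its brightest probe set, 1993 with DMSO and 2193 with PP1 (0.14). An equally bright probe set of Psma6, marked as open to cross-hybridisation, went from 2136 to 1432 (-0.58), so its direction depends on the probe set.

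The beta ring held 6 of 7 subunits below 0, with a median of -0.11. Its catalytic members lay on both sides of 0. Psmb6, the caspase-like subunit, went from 1463 to 1150 (-0.35). Psmb5, the chymotrypsin-like subunit and the main target of the drug bortezomib, went from 1442 to 1335 (-0.11). Psmb7, the trypsin-like subunit, went from 2907 to 3409 (0.23) and was the highest of all core subunits. Each of these 3 genes had 1 probe set, and their ratios differ by less than 2 SD between probe sets of a gene.

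The other beta subunits, which form the ring without a catalytic site, were all below 0. Psmb3 was the lowest of them, and both its probe sets showed it: 807 with DMSO and 549 with PP1 (-0.56), and 833 and 528 (-0.66). It missed the 1.5-fold limit by its brighter probe set (1.47-fold) and passed it by the other (1.58-fold). Psmb2 went from 1024 to 749 (-0.45). Psmb1 (2185 and 2076) and Psmb4 (2961 and 2853) were at -0.07 and -0.05 by their brightest probe sets.

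**Figure D2:**
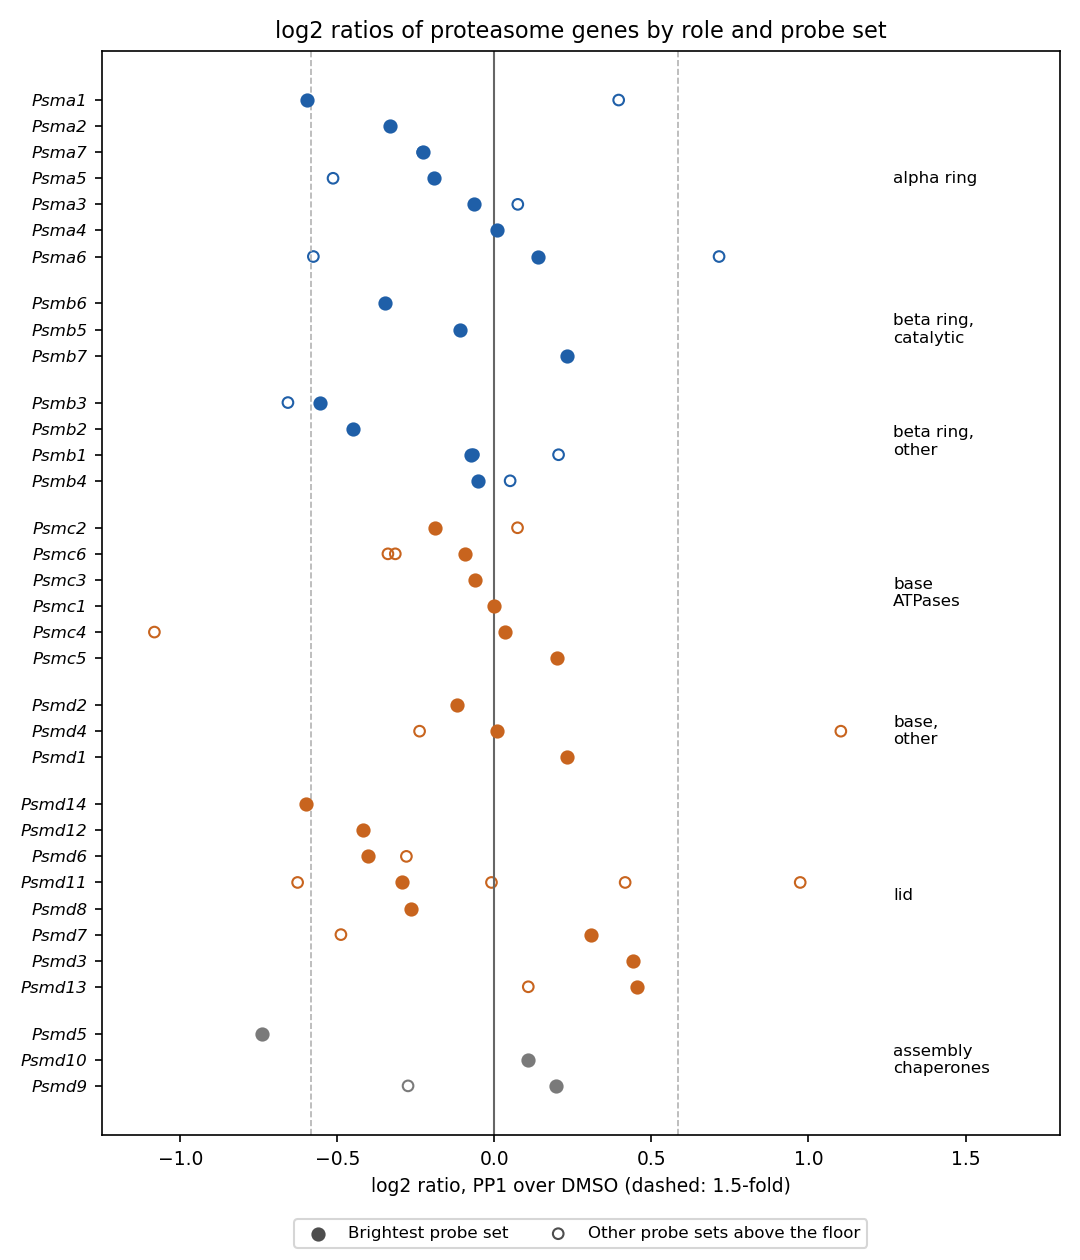
log2 ratio of PP1 over DMSO (x axis) for the 31 subunits and 3 chaperones, grouped by role (y axis); filled points are the brightest probe set of a gene, open points its other probe sets above the floor, and dashed lines mark 1.5-fold. All 9 base genes cluster near 0 by their filled points. The filled points of the 8 lid genes fall on both sides with none within 1.2-fold, Psmd8 only just outside.

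Base and lid of the regulatory particle differed in how widely their ratios were spread. All 9 base genes lay within 1.2-fold of equal signal, which held for 48.3% of all measured genes. None of the 8 lid genes did: 5 were at least 1.2-fold lower and 3 at least 1.2-fold higher. Psmd8 was only just past the limit, at 1.202-fold. Sem1, a lid subunit that the naming rule leaves out, was within it (1.16-fold). The SD of the log2 ratio was 0.14 over the base genes and 0.43 over the lid genes, and the latter is close to the SD of 0.41 between probe sets of a gene. With the median of a gene's probe sets in place of the brightest, 7 of 9 base genes (without Psmc4 and Psmc6) and 2 of 8 lid genes (Psmd7 and Psmd11) were within 1.2-fold, and the SDs were 0.24 and 0.35. Under a loess fit on signal, 7 of 9 base and 0 of 8 lid genes were within 1.2-fold. As deposited, none of the 17 lay within 1.2-fold, but the median of all genes was itself at -0.71 there. That count therefore says nothing about base or lid, and the SDs stayed at 0.14 and 0.43. The share of all genes within 1.2-fold was not counted under these alternatives. The contrast of base and lid was not among the planned results.

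In the base, the ATPases Psmc1 to Psmc6 had a median of -0.03. Psmc1 had 531 with DMSO and 530.5 with PP1. The highest was Psmc5, from 728 to 837 (0.20), and the lowest Psmc2, from 2397 to 2103 (-0.19). That probe set of Psmc2 is marked as open to cross-hybridisation, and its other probe set gave 0.07, from 1392 to 1465. Psmc3 was at -0.06 (972 and 931). All 3 probe sets of Psmc6 were below 0, from -0.34 to -0.09. Psmc4 had 827 and 847 by its brightest probe set (0.03). Its other probe set, of about the same brightness, went from 893 to 422 (-1.08, 2.12-fold lower), so the value for Psmc4 rests on a choice between probe sets of similar brightness. Of the base subunits without ATPase activity, the scaffolds Psmd1 and Psmd2 were at 0.23 (974 and 1144) and -0.12 (1598 and 1472). Psmd4, a receptor for ubiquitin chains, was at 0.01 (630.2 and 634). Its probe sets spread widely too: another went from 205 to 440 (1.10), and a dim one from 46.0 to 39.0 (-0.24).

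The lid held both the lowest and the highest ratios of all subunits. Psmd14, the deubiquitinase that cuts the ubiquitin chain from the substrate, was the lowest: 1823 with DMSO and 1202 with PP1 (-0.60, 1.52-fold lower), by its only probe set. Psmd7, its catalytically inactive partner in the same heterodimer, went the other way, from 244 to 301 (0.31). A dim probe set of Psmd7 gave a bound of at least 1.40-fold lower, being under the floor with PP1.

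The scaffold subunits of the lid divided in the same manner. Psmd12 went from 1000.0 to 748 (-0.42) and Psmd6 from 1907 to 1442 (-0.40), with -0.28 by its other probe set. Psmd8 went from 2598 to 2161 (-0.27). On the other side, Psmd13 went from 389 to 532 (0.45), with 0.11 by its other probe set, and Psmd3 from 480.0 to 652 (0.44). Psmd11 was at -0.29 by its brightest probe set (2258 and 1841), which is marked as shared between transcripts. Its other 4 probe sets above the floor ran from -0.63 to 0.97, the latter a lower bound from a probe set under the floor with DMSO, so no direction can be given for Psmd11.

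The assembly chaperones lay on both sides of 0. Psmd5 had the lowest ratio of all members, from 695 to 416 (-0.74, 1.67-fold lower), by its only probe set. Only 3.91% of all measured genes lay lower. Psmd10, also known as the oncoprotein gankyrin, was at 0.11 (247 and 266). Psmd9 was dim, with 136.0 and 156 (0.20), while its second, dimmer probe set gave -0.27. Psma8 (23.7 and 21.8) and Psmb11 (10.8 and 21.2) were under the floor on both arrays and have no ratio. Psmc3ip, which is no proteasome gene, had 99.0 and 118 (0.26), or -0.17 by its other probe set.

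Core and regulatory particle overlapped. The median of the core was lower by 0.09 on the log2 scale than that of the regulatory particle (-0.15 against -0.06), while the SD between genes was 0.25 in the core and 0.30 in the regulatory particle. No core subunit lay below the lowest regulatory subunit, Psmd14, where 6.89% of all measured genes did, but Psma1 came close (-0.598 against -0.601). The highest core subunit was Psmb7, and 70.2% of all measured genes lay below it. Above it lay 4 of 17 regulatory subunits (Psmd1, Psmd7, Psmd3 and Psmd13), Psmd1 only narrowly (0.233 against 0.230). Relative to the median of all genes, 12 of 14 core and 11 of 17 regulatory subunits were lower. The difference of the medians ran from -0.15, without probe sets shared between transcripts, to -0.04, when a gene was given the median of its probe sets. Under a loess fit on signal the core stayed below the median of all genes, by 0.11, and the regulatory particle lay above it, by 0.02.

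**Figure D3:**
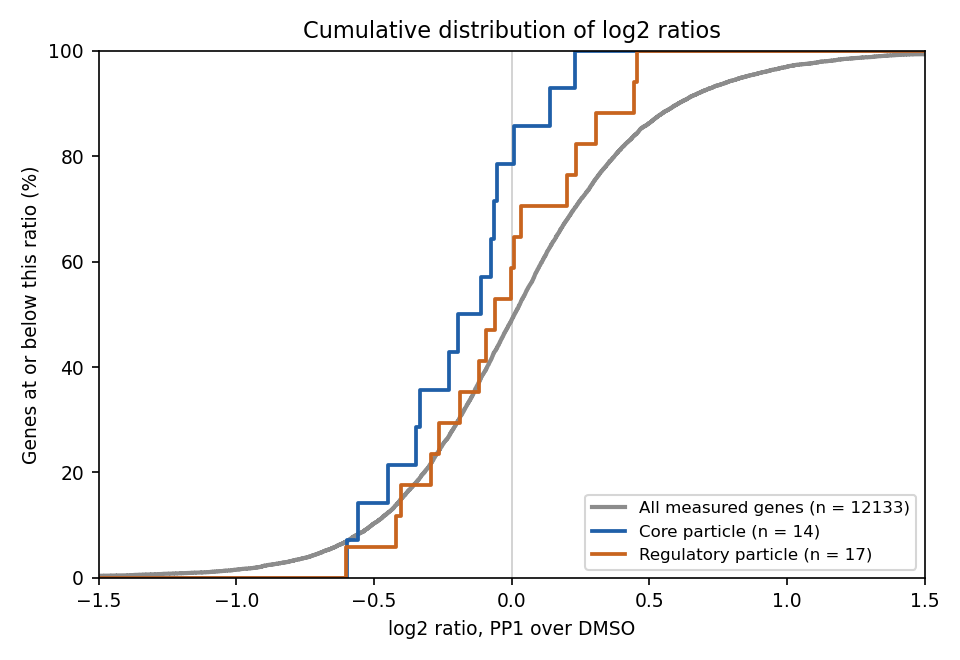
Cumulative share of genes (y axis, %) at or below each log2 ratio of PP1 over DMSO (x axis) for all 12133 measured genes, the 14 core and the 17 regulatory subunits, after scaling to equal trimmed means. Both subunit curves end well short of the upper tail of all genes, and the core curve lies to the left of the regulatory one over most of its length.

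Brightness moved with these results. All 14 core subunits and 12 of 17 regulatory subunits belonged to the brightest 20% of measured genes. In that class the median log2 ratio was -0.05 and 56.2% of genes were below 0, against 0.12 and 37.3% in the dimmest 20%. The spread was also narrower, with an SD of 0.40 in the brightest class against 0.49 in the dimmest. The part of brightness was looked at only through the loess fit.

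Over all probe sets the share below 0 was like that by gene. Of the 54 subunit probe sets above the floor, 34 were below 0 (63.0%), against 44.9% of all probe sets with 1 gene, and their median was -0.08. At 1.5-fold, 5 were lower, where 7.1% of all probe sets were, and 3 were higher, where 13.9% were. No subunit was 1.5-fold higher by its brightest probe set. Several probe sets were above the floor for 17 subunit and chaperone genes. For 5 of these all lay below 0 (Psma5, Psma7, Psmb3, Psmc6 and Psmd6), for 1 all lay above 0 (Psmd13) and for 11 they lay on both sides. All probe sets on 1 side were found in 48.8% of all genes of this kind. The other 17 genes rested on 1 probe set each, among them Psmd14 and Psmd5.

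The inducible catalytic subunits, which replace the constitutive ones in the immunoproteasome, had higher ratios than their constitutive counterparts. At the caspase-like site, Psmb9 had a log2 ratio of 2.70 and Psmb6 of -0.35, a difference of 3.05. At the chymotrypsin-like site, Psmb8 was at 2.41 and Psmb5 at -0.11, a difference of 2.52. At the trypsin-like site, where the constitutive Psmb7 was itself slightly above the bulk, Psmb10 went from 188 to 406 (1.11), a difference of 0.88. Psmb9 and Psmb8 started from dim signals of 33.2 and 51.9 with DMSO, so their sizes are imprecise. A floor at the 75th percentile left ratios of 0.42 and 0.78. The factor applied to the PP1 array cancels in these differences. With 1 array per group and 1 probe set above the floor for each of the 6 genes, they have no error of their own.

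**Figure D4:**
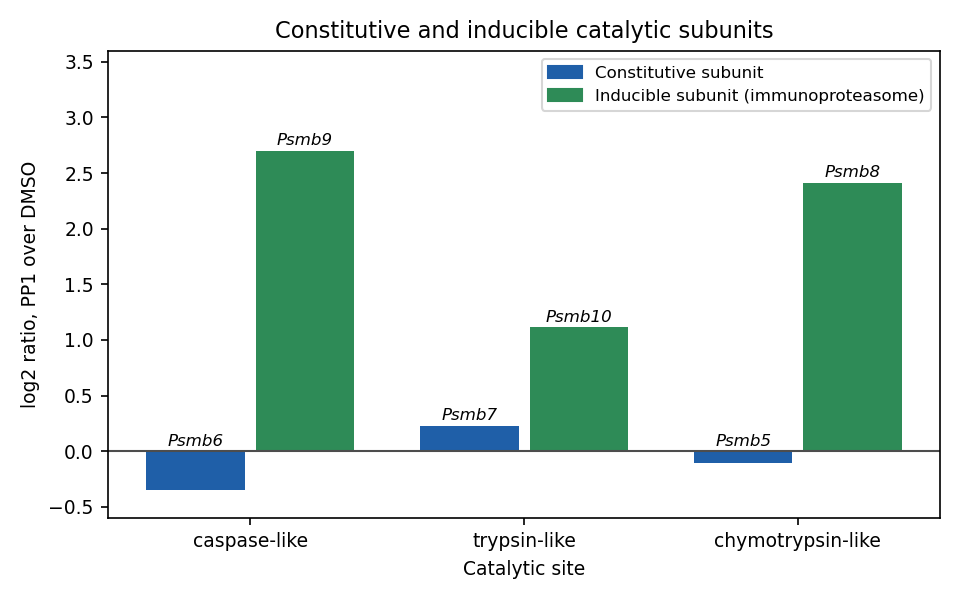
log2 ratio of PP1 over DMSO (y axis, bars from 0) of the constitutive and the inducible subunit of each catalytic site (x axis), 1 array per group and no error bar. The inducible subunits stand at 2.70, 1.11 and 2.41, and the constitutive ones between -0.35 and 0.23.

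Of 36 other genes of the pathway that were listed, 26 had a measured value under these names. Their median log2 ratio was -0.03, with 15 of 26 below 0 (48.9% of all genes), 7 at least 1.2-fold lower (24.2% of all genes) and 3 at least 1.2-fold higher (27.4%). Of 5 chaperones that assemble the core particle, 4 were below 0 and 3 at least 1.2-fold lower by their brightest probe sets, against 48.9% and 24.2% of all genes. Psmg4 went from 385 to 276 (-0.48) and Psmg1 from 530.4 to 415 (-0.35). Psmg2 went from 754 to 551 (-0.45), but had -0.01 by another probe set. Pomp, which guides the last step of core assembly, was at 0.13 (1538 and 1681).

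Proteins that bind the finished proteasome went both ways. Psme1, a subunit of the interferon-inducible activator, went from 509 to 788 (0.63, 1.55-fold higher). It was the only gene of the 26 past 1.5-fold upward, where 10.6% of all genes were. As deposited it lay at -0.12. Uchl5, a deubiquitinase bound to the regulatory particle, went from 546 to 350.2 (-0.64, 1.56-fold lower). It was the only one of the 26 past 1.5-fold downward, where 7.38% of all genes were. Sem1, a small lid subunit outside the naming rule, was at -0.21 and -0.22 by its probe sets. The ubiquitin ligase Ube3c was at 0.31 by its brightest probe set (258 and 320) and at -0.01 by another (278 and 276). The alternative caps Psme3 and Psme4 were at 0.03 and -0.12. That probe set of Psme4 is marked as shared between transcripts, and others gave 0.20 and 0.05. A dim one, under the floor with PP1, gave a bound of at least 1.46-fold lower. A second probe set of Psme3 went from 284 to 160 (-0.83).

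Of 4 measured genes listed as regulators of the subunits, 3 were within 1.2-fold, which held for 48.3% of all genes. Nfe2l1, the factor behind the joint response of the subunits, went from 656 to 599 (-0.13), and the related Nfe2l2 from 1505 to 1553 (0.05). Ngly1, which processes NFE2L1, was at 0.11. The other listed regulator, the unfoldase Vcp upstream of the proteasome, was at 0.30 (2977 and 3671). The shuttle factors Ubqln4 and Ubqln1 were at -0.40 and -0.34, the former with 0.63 by a dimmer probe set, and the ubiquitin-activating enzyme Uba6 was at -0.50 (741 and 524), with its other probe sets above the floor up to 0.58.

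The promoter table held 30 windows for 28 of the 34 subunit and chaperone genes, each from 250 bases before to 50 after a start. The motif with the greatest difference from other promoters was the ETS site CCGGAAGT, in 7 of 30 windows (23.3%) against 3.89% of all 32851 windows and 5.15% of those of protein-coding genes. It was found in 6 of 15 windows of the regulatory particle and in 1 of 12 of the core. The 7 windows belong to 6 genes, so a gene of the regulatory particle was counted through more than 1 window. The 6 genes with it did not share a direction by their brightest probe sets. Psmd12 (-0.42), Psmd6 (-0.40) and Psmc2 (-0.19) were below 0, and Psmc1 was at -0.00. Psma6 (0.14) and Psmd13 (0.45) were above 0. Psmc2 had 0.07 by another probe set, and Psma6 had -0.58 and 0.72 by others. The antioxidant response element core TGANNNNGC, a loose motif, was in 17 windows (56.7%) against 41.3% of all, with 9 of 12 core and 6 of 15 regulatory windows. These 17 windows belong to 16 genes, with a core gene counted through more than 1 window. The CCAAT box was in 36.7%, against 37.4% of all windows, the E-box in 2, the NRF1 site in 1 (Psma2) and the cAMP response element in 0. A match describes these letters only.

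The cultures expressed osteoblast genes. Of 9 listed markers, 6 were found by name, and Runx2, Bglap and Spp1 were not. All 6 were above the floor, with a summed signal of 24533 with DMSO and 33296 with PP1. The sum is carried by the bright matrix genes Col1a1, Col1a2 and Sparc. Of the 6 markers, 4 were above 0 and 2 below: Ibsp went from 159 to 37.7 (-2.08) and Sp7 from 71.6 to 53.3 (-0.43). Ibsp ended near the floor with PP1, so the size of its ratio is imprecise. Its other probe set was under the floor on both arrays (24.4 and 20.6). Markers of other cells were present on both arrays. Of 10 macrophage markers, 9 were above the floor (Aif1 was not) and 6 were above 0. The summed signal of the 9 was 13786 and 16381, carried by Lyz1 and Lyz2. C1qa (-0.56), C1qb (-0.76) and Csf1r (-0.01) were below 0. The sums were 1257 and 1410 for 7 of 8 skeletal muscle markers, and 2577 and 3637 for 4 of 6 adipocyte markers. Endothelial markers were near the floor, with Pecam1, Emcn and Vwf under it. The ratio of 3′ over 5′ control probe sets, which reflects RNA integrity, changed from DMSO to PP1 by -0.51 for Gapdh, -0.34 for Pcx and 0.14 for Actb on the log2 scale. The part of other cell types and of RNA quality in the proteasome values was not tested. In RNA from whole cultures, fewer cells of a type and less RNA per cell cannot be told apart.

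**Figure D5:**
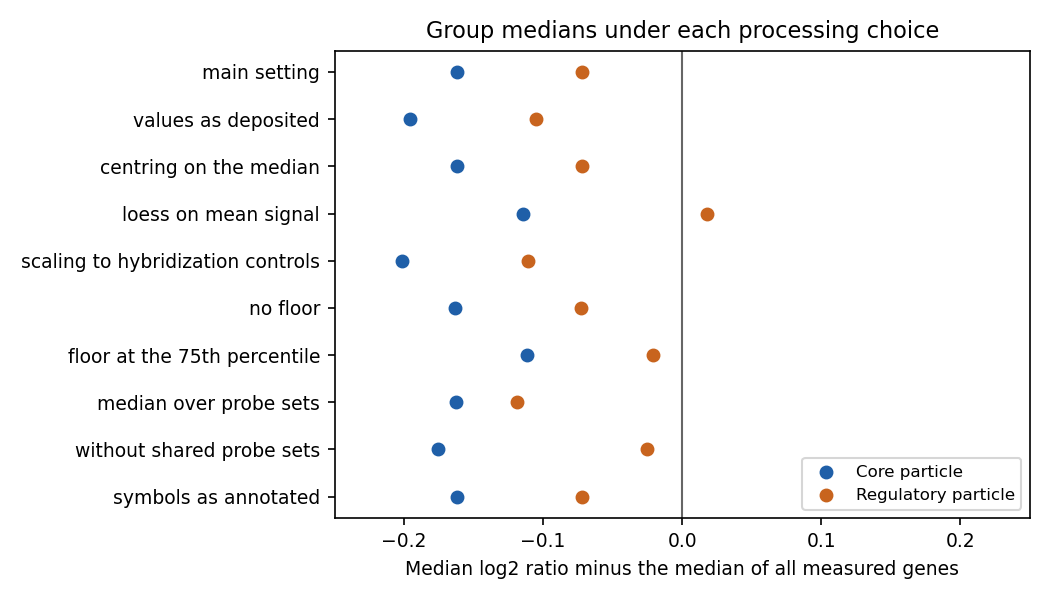
Median log2 ratio of core and regulatory subunits minus the median of all measured genes (x axis) under each processing choice (y axis). The core median lies between -0.20 and -0.11 in every setting shown, and the regulatory median between -0.12 and 0.02.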

How the data were processed

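RNA of 1 DMSO and 1 PP1 culture was measured on Affymetrix arrays. The deposited values are linear intensities per probe set made by the authors with MAS5, per the submitters' processing notes, with version and scaling target not given in the sources used here. Of 45101 probe sets, 64 controls were left out, 34945 had 1 gene, 932 several and 9160 none here. Symbols were updated by gene identifier through RefSeq (GRCm38.p6), with 34754 matches. Scaling, floor and the choice of the brightest probe set are given above. The steps were run on simulated data as a check of the code only. Its tolerance was wider than the differences reported between core, regulatory particle and all genes, so it says nothing about their precision. With 1 array per group there is no test and no p-value, and the number of arrays limits the precision. Within each role the text names, by rule, every catalytic subunit, members past 1.5-fold, the highest, the lowest and those whose probe sets disagree. Of each pathway list it names genes past 1.5-fold or the 2 largest. Any other gene named was picked with its values in view. Members and lists were chosen with earlier results of these data known. Alternatives were other scalings, floors, probe set summaries, symbols and fold limits. Python 3.11.15, pandas 2.3.3 and statsmodels 0.14.6 (loess) were used.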

Additional observations from a re-analysis of the deposited data

How the results depend on the processing

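No paired analysis was possible because each group is 1 array, and no replicate could be left out. The core minus regulatory difference was -0.09 and cannot change under a factor or a shift applied to all genes alike. It was -0.13 with loess, -0.15 without shared probe sets and -0.04 with the median over probe sets. Counting Psmd5, Psmd9 and Psmd10 with the regulatory particle, an option chosen after seeing the data, gave -0.12. The count of members at least 1.5-fold lower (3) depended on the scaling: it was 27 as deposited (60.6% of all genes were), 31 with scaling to the bacterial hybridization controls (66.9% of all genes) and 1, Psmd5, with loess (8.27% of all genes). It was 0 at 2-fold, where 1.55% of all genes were lower, and 11 at 1.2-fold, where 24.2% were. The count of members at least 1.5-fold higher (0) stayed 0 except at a limit of 1.2-fold, where it was 3 (27.4% of all genes were). The share of all genes at least 1.5-fold higher was 10.6% in the main setting. That share was only 1.21% as deposited and 0.92% with the hybridization controls, so a count of 0 says little there. Of the member and pathway genes past 1.5-fold in the main setting, scaling reversed only Psme1, to -0.12 as deposited and -0.21 with the hybridization controls. Those with smaller positive ratios fell below 0 too, such as Psmd13 (to -0.30 as deposited), Psmb7 (to -0.52) and Vcp (to -0.45). The median over probe sets moved Psma1 to -0.10, Psmc4 to -0.52, Psme3 to -0.40, Psmg2 to -0.01, Ubqln2 to 0.58 and Ubqln4 to 0.11. Of these, Psmc4, Psme3 and Ubqln4 changed sign. By smaller shifts, Psmd7 (to -0.09), Psmd9 (to -0.04), Psma3 (to 0.01), Psmf1 (to 0.15) and Ufd1 (to 0.09) changed sign too. The same setting brought Psmb3 past 1.5-fold in place of Psma1. Without shared probe sets Psmd11 passed 1.5-fold too. Whether all subunits were lower in absolute terms cannot be told from these arrays.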
